A study of Homo sapiens with 4 samples.

Results

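A set of 10 genes that make NAD or handle its precursors was followed in T24 cells given isorhapontigenin (ISO), a plant stilbene. They were taken by name from the deposited expression table, chosen with earlier results of these data known, and make up 10 of its 47432 genes. The set holds IDO1 and KYNU of the kynurenine route, QPRT, NAPRT and NAMPT, which make the mononucleotides of the de novo, Preiss-Handler and salvage routes to NAD, the nucleotide-joining enzymes NMNAT1, NMNAT2 and NMNAT3, the NAD kinase NADK and the nicotinamide methyltransferase NNMT. T24 is an established human line of invasive bladder carcinoma, labelled as urinary bladder epithelium. RNA was sequenced in 2 control and 2 ISO libraries, the latter from cells held at 20 µM ISO for 24 h, lettered a and b in each group. The control cells are untreated by their labels but carry a DMSO vehicle in the study's methods, and the labels and the methods also give different culture media. All libraries came from this 1 line, and the sources do not say whether those of a group were separate cultures, so the spread behind every p-value below is that of these libraries alone and may be technical.

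NAD is the electron carrier of central metabolism and is also used up by sirtuins, by poly(ADP-ribose) polymerases and by NAD glycohydrolases, so that cells must keep making it. The de novo route breaks tryptophan down through kynurenine to quinolinate, the Preiss-Handler route starts from nicotinate, and the salvage route recycles the nicotinamide that the consuming enzymes release. All 3 routes pass through a mononucleotide that an NMNAT enzyme joins to an adenylyl group. The whole kynurenine route is known mainly from the liver, while IDO1 and KYNU are known as genes that interferon gamma induces in many other cell types.

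With ISO, QPRT, IDO1, KYNU, NAPRT and NMNAT1 were higher and NAMPT and NMNAT2 lower, NADK and NNMT were not called, and NMNAT3 was too low to test. Levels are given as deposited, in reads scaled by kilobases of exon and by library size (RPKM). Changes are log2 fold changes of ISO against control on the log2(RPKM + 0.1) scale after trimmed mean of M values (TMM) scaling, tested with limma, and a gene was called at a Benjamini-Hochberg adjusted p under 0.05 over all 15304 genes tested. TMM shifted ISO against control by 0.063 on the log2 scale, towards lower values, compared with the RPKM as deposited. Of the 10 genes, 9 passed the filter on low values and 7 were called, 5 higher and 2 lower in ISO, where 9.86% of all tested genes were called (3.99% higher and 5.87% lower). The median log2 change was 0.27 over the 9 tested genes and 0.00 over all tested genes, to 2 decimals. In size without regard to sign, the medians were 0.28 and 0.11. The groups did not overlap for those 7 genes after scaling, as for 57.2% of all tested genes (28% with ISO higher and 29.2% with ISO lower). Limma-voom on reads recovered from the RPKM called the same number, 7, where it called 18.2% of all genes, and on the RPKM as deposited limma called 6, where it called 13.4%. Without the filter on low values, 0 of the 10 genes and 223 of all 24052 genes were called. Without the trend in limma's prior variance, 0 of the 10 genes and 1 of all 15304 genes were called. In each case 7 of the 10 genes had an unadjusted limma p under 0.05, as had 4421 and 3390 of all genes. Leaving out any 1 library gave fewer calls, both among the 10 genes and over all tested genes. In RNA from whole cultures, fewer cells that express a gene and less RNA per cell cannot be told apart.

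**Figure D1:**
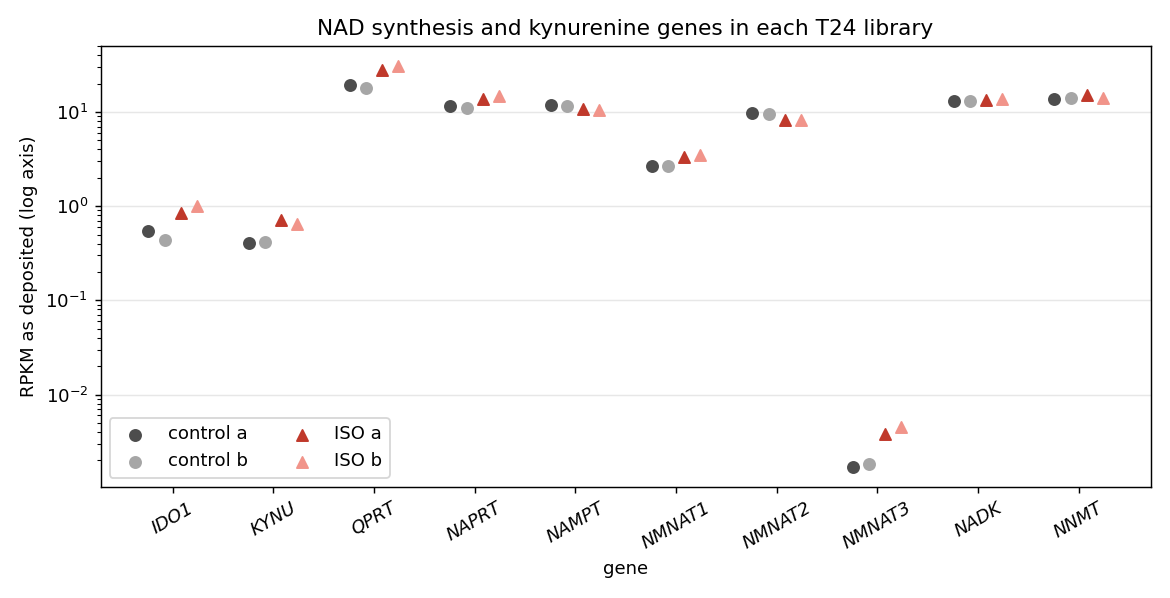
RPKM as deposited (log axis) of the 10 genes in the 2 control (circles) and 2 ISO (triangles) libraries, 1 point per library. QPRT was the highest in every library, at 17.8 to 30.8 RPKM, and NMNAT3 was below 0.005 RPKM in all 4.

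The libraries held 32349827 to 42879427 reads on genes, as recovered from the RPKM and exon lengths, so that 3 reads per kilobase of exon equal 0.0670 to 0.0885 RPKM. The 8 markers listed for an epithelial and urothelial carcinoma line summed to 963 to 982 RPKM in control and 840 to 852 RPKM in ISO. Nearly all of this came from the keratins KRT7, KRT8, KRT18 and KRT19 and from CD44. EPCAM was low, at 1.14 to 1.30 RPKM, and the basal keratin KRT5 was listed at 0. ITGB4 was at 2.43 and 2.28 RPKM in control and 1.06 and 1.20 RPKM in ISO. Of the 6 leukocyte markers, PTPRC, LYZ and CD3E were listed at 0 in every library. The sum of that list was 7.84 to 8.14 RPKM in control and 15.3 to 15.7 RPKM in ISO, nearly all from CD68 (4.85 to 5.09 and 12.0 to 12.2 RPKM) and CD14. The 3 endothelial markers summed to 17.8 RPKM in both control libraries and 14.2 to 14.7 RPKM in ISO, carried by CDH5. The 4 fibroblast markers, of which COL1A2 and DCN were listed at 0, summed to 0.750 to 0.990 RPKM, and the 3 liver markers to at most 0.0355 RPKM. The part of CD68 and CDH5 in the results below was not tested.

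The kynurenine route opened at a low level. IDO1, which oxidises tryptophan in the first and committed step, was at 0.544 and 0.440 RPKM in the control libraries and 0.842 and 0.998 RPKM in the ISO libraries, on 65 to 120 reads. Both ISO libraries were above both control libraries. The gene (ENSG00000131203; chromosome 8, 39902275 to 39928790, plus strand, hg38) rose 1.66-fold on the tested scale, which understates changes of low genes (a log2 change of 0.73 with standard error 0.14 and limma adjusted p of 0.027). The call held without control a and was lost without control b (adjusted p = 0.081), ISO a (0.072) or ISO b (0.13).

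KYNU, the hydrolase that cleaves kynurenine and 3-hydroxykynurenine, was at 0.408 and 0.416 RPKM in control and 0.708 and 0.651 RPKM in ISO, on 307 to 504 reads. Here too the groups were apart, and the control libraries were nearly equal. KYNU (ENSG00000115919; chromosome 2, 142877657 to 143055833, plus strand) rose 1.47-fold (log2 fold change 0.55, with limma giving a standard error of 0.13 and an adjusted p of 0.045). The call was lost whichever library was left out (adjusted p = 0.12 to 0.17), while limma-voom on the recovered reads gave 0.66 with an adjusted p of 6.9e-05.

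QPRT stood at the other end of the route and of the scale of levels. It turns quinolinate into nicotinate mononucleotide, the step at which the de novo route enters NAD synthesis, and was at 19.5 and 17.8 RPKM in control and 27.9 and 30.8 RPKM in ISO. The lowest ISO library was well above the highest control library, and 89.4% of the tested genes had a lower mean level than QPRT. QPRT (ENSG00000103485; chromosome 16, 29663279 to 29698699, plus strand) rose 1.50-fold (log2 fold change 0.59, with a standard error of 0.061 and an adjusted p of 0.0048 from limma), and 4.57% of the tested genes changed more. It was the only one of the 10 genes whose call held whichever library was left out (adjusted p = 8.2e-04 to 0.032).

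NAPRT, which turns nicotinate into its mononucleotide and so opens the Preiss-Handler route, was at 11.5 and 11.2 RPKM in control and 13.7 and 14.9 RPKM in ISO. Both ISO libraries were higher. NAPRT (ENSG00000147813; chromosome 8, 143574785 to 143578649, minus strand) rose 1.21-fold (a log2 change of 0.27 with standard error 0.049 and limma adjusted p of 0.022). The call was lost without control b (adjusted p = 0.076) or ISO b (0.091). An antisense long non-coding RNA gene shares 30.1% of its exon bases and was listed at 0 in every library, and since the sources do not state that strand was used in counting, reads of the pair cannot be told apart.

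NAMPT, the rate-limiting enzyme of the salvage route from nicotinamide, moved the other way. It was at 11.8 and 11.7 RPKM in control and 10.8 and 10.4 RPKM in ISO, the deepest counted of the 10 genes with 8302 to 12454 reads. Both ISO libraries were lower, by a small amount. NAMPT (ENSG00000105835; chromosome 7, 106248298 to 106285966, minus strand) fell by 0.21 on the log2 scale (standard error 0.044, limma adjusted p = 0.035). The call depended on the scaling, since the RPKM as deposited gave a fall of 0.15 with an adjusted p of 0.060, and it was lost whichever library was left out (0.060 to 0.13). On the recovered reads, limma-voom gave an adjusted p of 0.0014.

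**Figure D2:**
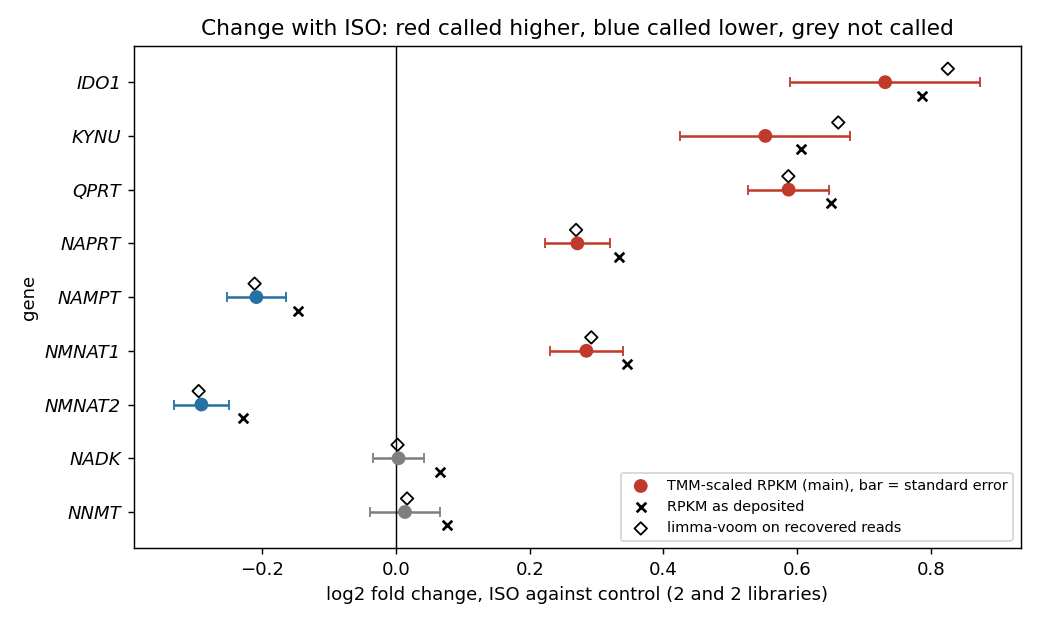
Log2 fold change of ISO against control (2 and 2 libraries) for the 9 tested genes, with the standard error as a bar for TMM-scaled RPKM. Crosses (RPKM as deposited) lie to the right of the points by about 0.06, and diamonds (limma-voom on recovered reads) lie close to the points except for IDO1 (0.83 against 0.73) and KYNU (0.66 against 0.55).

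The RefSeq promoter windows of KYNU and QPRT, called higher, and of NAMPT, called lower, are shown because these 3 genes, from the kynurenine and salvage routes, moved in opposite directions. Each runs from 250 bases before to 50 after a RefSeq start on GRCh38.p14, reads 5′ to 3′ on the gene's strand, and covers chr2:142877414-142877713 (KYNU), chr16:29678930-29679229 (QPRT, the first of 2 RefSeq starts) and chr7:106284934-106285233 (NAMPT). Capitals mark matches, on either strand, to 6 motifs named after the sequences.
KYNU: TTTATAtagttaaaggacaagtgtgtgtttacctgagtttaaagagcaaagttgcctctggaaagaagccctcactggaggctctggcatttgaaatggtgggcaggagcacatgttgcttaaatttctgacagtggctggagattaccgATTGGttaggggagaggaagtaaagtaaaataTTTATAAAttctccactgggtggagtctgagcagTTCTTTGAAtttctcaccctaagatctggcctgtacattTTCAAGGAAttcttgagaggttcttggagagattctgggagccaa
QPRT: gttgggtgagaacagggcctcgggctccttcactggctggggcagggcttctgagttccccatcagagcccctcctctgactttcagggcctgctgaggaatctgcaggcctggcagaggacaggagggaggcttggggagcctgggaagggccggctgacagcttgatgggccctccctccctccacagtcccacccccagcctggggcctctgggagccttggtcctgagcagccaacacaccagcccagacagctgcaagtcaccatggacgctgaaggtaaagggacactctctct
NAMPT: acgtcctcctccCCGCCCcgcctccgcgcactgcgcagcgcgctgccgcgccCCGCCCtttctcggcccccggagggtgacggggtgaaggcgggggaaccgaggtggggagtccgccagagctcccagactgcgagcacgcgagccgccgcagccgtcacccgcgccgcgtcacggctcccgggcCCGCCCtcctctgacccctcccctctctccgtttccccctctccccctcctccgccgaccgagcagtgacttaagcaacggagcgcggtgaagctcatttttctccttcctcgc

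The KYNU window held 2 matches to the interferon gamma-activated sequence TTCNNNGAA, at positions -34 and 6 counted from the start base as 1 with no 0, whereas 7.66% of 35116 RefSeq windows of the same length held at least 1. It also held 3 matches to the TATA box TATAAA, of which the matches at -68 and -66 overlap on opposite strands, and 1 to CCAAT at -100, found in 11.5% and 34.6% of all windows. The NAMPT window held 3 matches to the GC box GGGCGG, found in 45.0% of windows, and none to the other motifs. No match to any of the 6 motifs lay in the QPRT window. The remaining motifs were the hypoxia response element ACGTG (21.4% of windows) and the interferon-stimulated response element (3.57%), with no match in these 3 windows. The windows of NMNAT1 and NMNAT2 were also scanned but are not shown. Matches were not listed for IDO1, nor for the rest of the genes followed. NMNAT1 had 1 GC box and 1 CCAAT match, and NMNAT2 had 1 hypoxia response element match. A match is a description of the letters, and no binding was measured.

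Set against one another within each library, where no scaling between libraries enters, QPRT, NAPRT and NAMPT changed their proportions. The ratio of QPRT to NAMPT RPKM was 1.65 and 1.53 in control and 2.58 and 2.96 in ISO, and that of NAPRT to NAMPT was 0.979 and 0.954 in control and 1.27 and 1.44 in ISO. Of the summed RPKM of the 3 genes, QPRT held 45.5% and 43.9% in control and 53.2% and 54.9% in ISO. NAMPT held 27.6% and 28.7% in control and 20.6% and 18.5% in ISO, and NAPRT 26.2% to 27.4% in all 4 libraries. The QPRT share was higher and the NAMPT share lower in both ISO libraries, and that of NAPRT varied by little. These ratios are descriptions, because an exact two-sided permutation test of 2 against 2 libraries cannot go below p = 0.333. RPKM divides by the length of all annotated exons of a gene, 23584 bases for NAMPT against 3680 for QPRT and 2837 for NAPRT, so the proportions between genes depend on that annotation, though the fold change of a ratio between libraries does not.

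**Figure D3:**
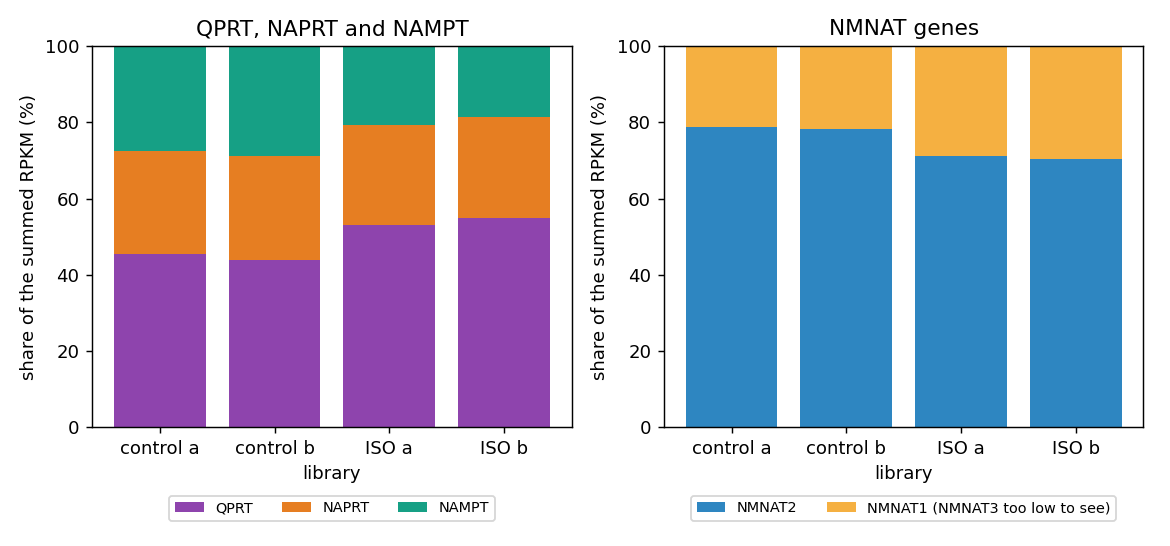
Stacked bars give each gene's share (%) of the summed RPKM of QPRT, NAPRT and NAMPT (left) and of the NMNAT genes (right), 1 bar per library. The QPRT share was 43.9% to 45.5% in control and 53.2% to 54.9% in ISO, and the NMNAT2 share 78.2% to 78.8% in control and 70.5% to 71.1% in ISO.

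NMNAT1 and NMNAT2, which join the mononucleotide to an adenylyl group in a step shared by all routes, moved in opposite directions. NMNAT1, the nuclear enzyme, was at 2.64 and 2.68 RPKM in control and 3.35 and 3.47 RPKM in ISO, with both ISO libraries above both controls. NMNAT1 (ENSG00000173614; chromosome 1, 9943428 to 9985501, plus strand) rose 1.22-fold (log2 fold change 0.28, with limma giving a standard error of 0.055 and an adjusted p of 0.026), but the call was lost whichever library was left out (0.083 to 0.11). Another gene on the same strand shares 9.46% of its exon bases and was at 0 to 0.0542 RPKM.

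NMNAT2, the enzyme of the Golgi and cytosol, known for its role in axon survival, was at 9.79 and 9.61 RPKM in control and 8.24 and 8.29 RPKM in ISO. Both ISO libraries lay below both controls. NMNAT2 (ENSG00000157064; chromosome 1, 183248237 to 183418380, minus strand) fell by 0.29 on the log2 scale (standard error 0.041, limma adjusted p = 0.011). Among the fits with a library left out, its call was lost only without ISO b. An antisense gene shares 6.93% of its exon bases and was at 2.89 to 3.04 RPKM. The ratio of NMNAT2 to NMNAT1 RPKM was 3.71 and 3.58 in control and 2.46 and 2.39 in ISO, so that NMNAT2 went from 78.8% and 78.2% of the summed NMNAT RPKM to 71.1% and 70.5%.

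NMNAT3, the mitochondrial member of the family, was close to undetected. It had 1 read in each control library and 2 reads in each ISO library (0.00172, 0.00182, 0.00377 and 0.00455 RPKM). All values were below the 3 reads that a count of 0 allows, so no fold change is given, and the gene (ENSG00000163864; chromosome 3, 139560180 to 139678017, minus strand) was not tested. At this depth a change could not have been detected.

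NADK, the cytosolic kinase that makes NADP from NAD, was at 13.1 and 13.0 RPKM in control and 13.4 and 13.9 RPKM in ISO. The ISO libraries were higher as deposited, but the groups overlapped after scaling. NADK (ENSG00000008130; chromosome 1, 1751232 to 1780457, minus strand) had a log2 change of 0.0040 (standard error 0.038, limma adjusted p = 0.96) and was not called.

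NNMT, which methylates nicotinamide and so diverts it from salvage, was at 13.6 and 14.1 RPKM in control and 15.2 and 14.0 RPKM in ISO. ISO b lay between the control libraries. NNMT (ENSG00000166741; chromosome 11, 114257787 to 114313536, plus strand) had a log2 change of 0.014 (standard error 0.053, limma adjusted p = 0.90). The sign of both NADK and NNMT changed with the library left out.

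Levels of the 10 genes spanned a wide range. In control, QPRT (mean 18.7 RPKM) stood above NNMT (13.8 RPKM) and NADK (13.0 RPKM), followed by NAMPT (11.7 RPKM) and NAPRT (11.3 RPKM), then NMNAT2 (9.70 RPKM), NMNAT1 (2.66 RPKM), IDO1 (0.492 RPKM), KYNU (0.412 RPKM) and NMNAT3. In ISO, NAPRT (14.3 ± 0.840 RPKM, SD, n = 2) and NNMT (14.6 ± 0.797 RPKM, SD, n = 2) were within their spread of each other, with NADK at 13.7 ± 0.325 RPKM (SD, n = 2) and NAMPT below them at 10.6 ± 0.297 RPKM (SD, n = 2).

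Other genes were taken from 7 lists, which hold 57 genes beside the 10 above, 46 on the NAD lists and 11 on a list of the interferon gamma response. Of the 46 genes on the NAD lists, 33 were tested and 6 called, 2 higher and 4 lower, where 9.86% of all tested genes were called. That split depended on the scaling and the test, with 6 higher and 4 lower on RPKM as deposited and 6 higher and 5 lower by limma-voom. The interferon gamma list had 5 genes called higher of 9 tested. In the kynurenine route, 4 of 8 tested genes were called higher and none lower by limma. Of these calls, IDO1, KYNU and QPRT belong to the 10 genes already described, and KYAT3 was the only other. No gene of that list had a lower value at an unadjusted p under 0.05 by limma or limma-voom. KYAT3, an aminotransferase that turns kynurenine into kynurenic acid, was at 12.0 and 11.7 RPKM in control and 14.1 and 13.9 RPKM in ISO (log2 fold change 0.18, with a standard error of 0.040 and an adjusted p of 0.041 from limma), a call lost whichever library was left out (0.079 to 0.17). TDO2, the liver enzyme that shares the first step with IDO1, was listed at 0 in every library. Between IDO1 and QPRT the listed genes differed in level. AFMID was at 3.92 and 3.70 RPKM in control and 4.42 and 4.43 RPKM in ISO, and was not called. KMO, which hydroxylates kynurenine, was at 0.00496 to 0.0494 RPKM. HAAO, which makes the precursor of quinolinate, was at 0 to 0.0108 RPKM, and both KMO and HAAO were under the filter.

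Of 8 tested genes in the salvage and Preiss-Handler list, limma called the 4 described above, 2 in each direction. It called 9.86% of all tested genes. At an unadjusted limma p under 0.05, 2 were higher and 4 lower, as were 1931 and 2214 of all 15304 tested genes. Limma-voom called 2 higher and 3 lower, where it called 18.2% of all genes. NADSYN1, the synthetase that ends the Preiss-Handler and de novo routes, had a log2 change of -0.11 (standard error 0.058, limma adjusted p = 0.30). The nicotinamide riboside kinase NMRK1 was lower in both ISO libraries (1.99 and 1.73 RPKM in control, 1.62 and 1.37 RPKM in ISO) but missed the threshold (adjusted p = 0.098 from limma), although limma-voom called it lower (log2 change -0.37, adjusted p = 0.040), and NMRK2, the kinase of muscle, was listed at 0 throughout. Among the 4 genes of NADP supply, NADK2, the mitochondrial NAD kinase, was called where NADK was not. It was at 5.03 and 5.13 RPKM in control and 6.53 and 6.34 RPKM in ISO (a log2 change of 0.27 with standard error 0.047 and limma adjusted p of 0.020). That call was lost whichever library was left out (0.057 to 0.087).

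Among the 5 genes of nicotinamide methylation and oxidation, 1 fell and none rose by limma, where 9.86% of all tested genes were called. A further gene was higher at an unadjusted limma p under 0.05, as were 1931 of all 15304 tested genes. Limma-voom called it, as it did 18.2% of all genes. The gene that fell was AOX1, an oxidase that turns methylated nicotinamide into pyridones, at 0.896 and 1.23 RPKM in control and 0.634 and 0.595 RPKM in ISO (log2 fold change -0.74, with limma giving a standard error of 0.15 and an adjusted p of 0.032). Its call held without control a and was lost without control b (0.10), ISO a (0.095) or ISO b (0.13). None of the 12 tested NAD consumers, which are sirtuins, PARP enzymes, tankyrases and SARM1, was called by limma. At an unadjusted limma p under 0.05, 4 of them were higher and 2 lower, as were 1931 and 2214 of all 15304 tested genes. Limma-voom called 2 higher, where it called 18.2% of all genes. The NAD glycohydrolases CD38 and BST1 stayed under the filter.

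The largest changes on the NAD lists were in transport, where 3 of 5 tested genes fell and none rose by limma. Over all tested genes, 9.86% were called, 5.87% lower. A further transport gene was higher at an unadjusted limma p under 0.05, as were 1931 of all 15304 tested genes, and limma-voom called it. SLC7A5, the light chain of the LAT1 carrier that brings tryptophan and other large neutral amino acids into the cell, was at 213.7 and 213.9 RPKM in control and 100.8 and 96.8 RPKM in ISO (log2 fold change -1.18, with a standard error of 0.041 and an adjusted p of 1.7e-04 from limma). SLC3A2, its heavy chain, was at 48.3 and 48.8 RPKM in control and 26.8 and 26.5 RPKM in ISO (a log2 change of -0.92 with standard error 0.035 and limma adjusted p of 1.7e-04). Both calls held whichever library was left out. SLC25A51, which carries NAD into mitochondria, was at 3.69 and 3.51 RPKM in control and 3.04 and 3.03 RPKM in ISO (log2 fold change -0.30, with limma giving a standard error of 0.057 and an adjusted p of 0.026), a call lost whichever library was left out (0.053 to 0.11). The nicotinate carrier SLC5A8 was listed at 0.

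**Figure D4:**
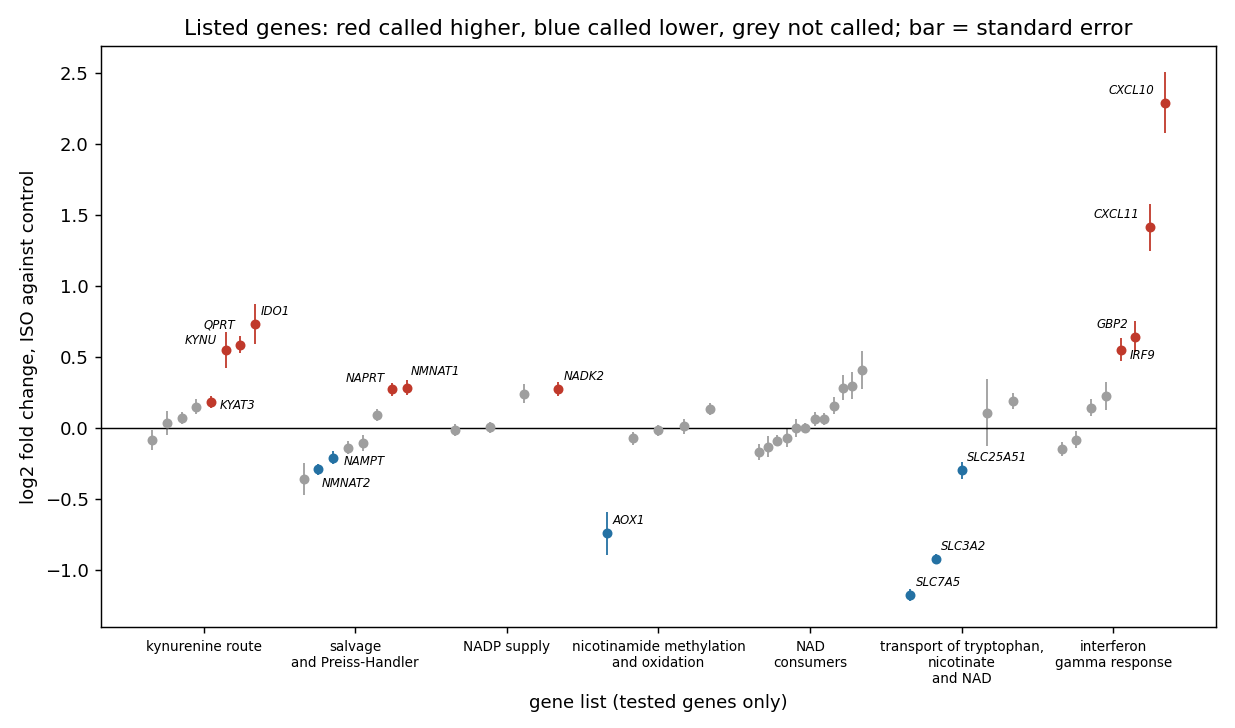
Log2 fold change of ISO against control, with its standard error, for the tested genes of the 7 lists that are reported here, ordered within each list. The called genes shown are named. SLC7A5 (-1.18) and SLC3A2 (-0.92) lie lowest, CXCL10 (2.29) and CXCL11 (1.41) highest, and no NAD consumer was called.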

How the data were processed

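Total RNA of T24 cells was sequenced from TruSeq libraries. The authors aligned the reads to hg38 allowing 2 mismatches, counted those on exons per gene and deposited the RPKM of each library, without TMM scaling or a log. Their group means and own comparisons were not used.

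From the RPKM and GENCODE v44 exon lengths, reads were recovered, and at least 98.8% of values above 0 were within 0.05 of a whole number. The recovered reads served limma-voom, an alternative over genes averaging 10 reads or more. For the main test, RPKM were scaled by TMM (30% of log ratios and 5% of levels trimmed, factors 0.974 to 1.03), 0.1 was added, and log2 values of genes with a mean of at least 0.1 RPKM went into limma 3.58.1 (R 4.3.3) with its trended prior variance, two-sided and with Benjamini-Hochberg adjustment. The chi-square of reads per gene between the libraries of a group averaged 3.15 and 3.83 (medians 0.986 and 0.958). The statistic allows for counting error only, and these means and medians lie above what counting error alone gives. The libraries were counted separately. Other scaling, pseudocounts of 1 and 0.01 RPKM, filters, no variance trend, a replicate block and each library left out were tried.

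The genes and lists were chosen with earlier results of these data known, and the 6 motifs after matches to a longer list had been seen. Named genes are the 10, the called listed genes (at most 4 per list and direction by p) and those at 0 in every library. AFMID, GBP1, GBP2, WARS1, CD74, NADSYN1, NMRK1, KMO, HAAO, CD38, BST1 and IRF1 were added after their values were seen. A gene that the rule selects is not reported here. Promoters are from RefSeq.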

Additional observations from a re-analysis of the deposited data

How the results depend on the processing

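Of the alternatives, removing the filter on low values and dropping the trend in the prior variance changed the counts most. Without the filter, limma called 223 of all genes, 0 of the 10 genes and 2 of the other listed genes. Without the trend these counts were 1, 0 and 0. In either setting 7 of the 10 genes had an unadjusted limma p under 0.05 (5 higher and 2 lower). So had 25 and 16 of the other listed genes, and 4421 and 3390 of all genes. Limma-voom on the recovered reads called 2736 of all genes (18.2%), 7 of the 10 genes and 17 of the other listed genes. Leaving out 1 library gave 500 to 1000 calls over all genes, 1 to 4 among the 10 genes and 4 to 8 among the other listed genes. With 1 library left in a group, its spread is assumed to be that of the other group. Of the 1509 genes called, 40.4% were higher in ISO, against 69.3% of the 2054 called (13.4%) on RPKM as deposited, where the median over all genes was 0.057 on the log2 scale and 6 of the 10 genes were called, NAMPT being lost.

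The sources do not say whether the letters a and b pair libraries between groups. The deviations of b from a had a correlation of -0.14 between groups over 5944 genes, which cannot settle that. With the letter as a replicate block, 1433 genes were called, 6 of the 10 genes and 11 of the other listed genes, with KYNU (adjusted p = 0.056) and KYAT3 (0.058) lost among the named genes. With the letters crossed, added after seeing the data, these counts were 1741, 6 and 12. Leaving out 1 library turned the sign of NADK (-0.0093 without control b and -0.0096 without ISO b, range up to 0.015) and of NNMT (-0.0060 without control a and -0.055 without ISO a, range up to 0.079), neither of which was called under any setting. Of the other tested genes among the 10 and the called genes named by the rule, none changed direction. Genes added after their values were seen were not compared across all these settings. A stricter minimum of 1 RPKM left IDO1 and KYNU untested and called 5 of the 10 genes. With 2 libraries a group and 2 residual degrees of freedom, changes of the size seen for NAMPT, NMNAT1 and KYNU lay close to the threshold, and NMNAT3 and the listed genes under the filter were too shallow to test.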

Other observations

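IDO1 and KYNU are known targets of interferon gamma, and the list of that response was read beside them. Of its 11 genes, 9 were tested, and 5 were called higher and none lower by limma. Over all tested genes, 3.99% were called higher and 5.87% lower. At an unadjusted limma p under 0.05, 1 gene was lower, as were 2214 of all 15304 tested genes. That gene was WARS1, at 19.8 and 19.4 RPKM in control and 17.5 and 19.3 RPKM in ISO. Its log2 fold change was -0.15 (adjusted p = 0.11 from limma), and limma-voom called it lower (adjusted p = 0.025). GBP1 and CD74 were not called. The chemokine CXCL10 was at 0.171 and 0.282 RPKM in control and 1.29 and 1.81 RPKM in ISO, on 9, 14, 62 and 72 reads (log2 fold change 2.29, with a standard error of 0.21 and an adjusted p of 0.0035 from limma). CXCL11, a chemokine that binds the same receptor, was at 0.150 and 0.186 RPKM in control and 0.660 and 0.613 RPKM in ISO (a log2 change of 1.41 with standard error 0.17 and limma adjusted p of 0.0068). Both calls held whichever library was left out.

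IRF9, a transcription factor of the type I interferon response, was at 2.13 and 2.19 RPKM in control and 3.08 and 3.66 RPKM in ISO (log2 fold change 0.55, with a standard error of 0.083 and an adjusted p of 0.014 from limma). Among the fits with a library left out, its call was lost only without ISO b. GBP2, a guanylate-binding protein, was also called. IRF1, an interferon-induced transcription factor, had a log2 fold change of -0.08 (adjusted p = 0.43 from limma), and HLA-DRA, of the class II antigen complex, was listed at 0 in every library. The part of interferon signalling in the IDO1 and KYNU results was not tested.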
